A study of Arabidopsis thaliana with 21 samples.

Results

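This account covers 10 Arabidopsis thaliana genes for repressors that act on chromatin: the Polycomb genes CLF (AT2G23380), SWN (AT4G02020), EMF2 (AT5G51230), VRN2 (AT4G16845), FIE (AT3G20740), MSI1 (AT5G58230) and BMI1A (AT2G30580), the chromatin remodeller gene PKL (AT2G25170), and the B3-domain factor genes VAL1 (AT2G30470) and VAL2 (AT4G32010). They were named by locus, with earlier results of these data known, and are 10 of 37336 genes counted. All 10 passed the filter on low counts, as did 19298 genes in all. Messenger RNA was sequenced from wild-type seeds in 21 libraries. The 7 groups were seeds imbibed with ethylene, a gaseous plant hormone, for 6, 16 or 24 h, seeds imbibed in water for 6, 16 or 24 h, and dry seeds, each with 3 libraries. The growth label gives long days at 20 °C for all groups, no mutation or transgene is named, and the age of the seeds is not stated in the labels. The replicates are not said to come from separate seed lots, so p-values measure only the spread between these libraries, which may be technical.

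Polycomb repressive complex 2 (PRC2) places the repressive mark H3K27me3 on histones, and complex 1 (PRC1) adds ubiquitin to another histone and helps to keep genes silent. VAL proteins bind a short DNA element, the RY motif, and bring these complexes to their targets, and PKL remodels nucleosomes at many of the same loci. In Arabidopsis these proteins are known for shutting off the embryo programme, with its regulators LEC1, FUS3 and ABI3, when a seed turns into a seedling.

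The libraries held 12154732 to 22109880 reads. Results leave out the library labelled ethylene 16 h replicate 2 except where it is named. Across 18969 genes its log2 levels had a Pearson's r of 0.903 to 0.908 with its fellow ethylene libraries and of 0.994 to 0.995 with water at the same time, and for 8 of the 8 repressor genes whose ethylene and water ranges at 16 h were separate, its level lay nearer to water. Ethylene at 16 h therefore has n = 2. Markers of other tissues and of stage moved with the groups. The summed level of 4 embryo storage genes (CRA1, SESA1, OLEO1, EM6) was 319 to 481 CPM (normalised counts scaled to library size) with ethylene and 75367 to 83717 CPM with water at 24 h. That of 4 endosperm genes (EPR1, EXPA2, MAN7, CYP707A2) was 1127 to 1342 CPM with ethylene and 5342 to 5777 CPM with water. That of 4 genes of green tissue (RBCS1A, LHCB1.3, LHCB2.2, PSBO1) was 1023 to 1135 CPM with ethylene and 434 to 469 CPM with water. Single markers did not all follow these sums. At 24 h 2 endosperm genes were higher with ethylene and 2 lower, with log2 fold changes from -3.27 to 2.68. Of the 3 green tissue genes tested, 2 were higher and 1 lower (-1.50). Of all genes, 41.3% were higher and 41.3% lower. The 4 seed coat genes (BAN, TT10, TT12, MUM4) summed to 6.05 to 26.3 CPM over all groups, with 24.0 to 26.3 CPM with ethylene and 9.03 to 10.14 CPM with water at 24 h. TT12 was at 0 reads in all groups but water at 16 h. In whole seeds, fewer cells of a type and less RNA per cell cannot be told apart, and the part of these changes in the results below was not tested.

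The upstream windows of 3 of these genes and 1 target are printed because they carry the motifs that were looked for, and because CLF and SWN, VAL1 and FUS3 return in the results. Each holds the 250 bases before the annotated start, 5′ to 3′ on the gene's strand, from the RefSeq assembly TAIR10.1, with motif matches in capitals. The capitals mark GAGAGA in CLF, the G-box CACGTG in SWN, the RY core CATGCA or its reverse complement TGCATG in VAL1, and GAGAGA repeats followed by CATGCA in FUS3. The windows lie at chr2:9954842-9955091 (+) for CLF, chr4:886330-886579 (+) for SWN, chr2:12985278-12985527 (-) for VAL1 and chr3:9856213-9856462 (-) for FUS3.
CLF: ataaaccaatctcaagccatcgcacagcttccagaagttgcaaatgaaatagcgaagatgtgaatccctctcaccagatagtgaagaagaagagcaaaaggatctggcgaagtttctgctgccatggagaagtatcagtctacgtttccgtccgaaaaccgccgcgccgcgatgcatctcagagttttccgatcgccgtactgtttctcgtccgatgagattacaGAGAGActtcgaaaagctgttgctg
SWN: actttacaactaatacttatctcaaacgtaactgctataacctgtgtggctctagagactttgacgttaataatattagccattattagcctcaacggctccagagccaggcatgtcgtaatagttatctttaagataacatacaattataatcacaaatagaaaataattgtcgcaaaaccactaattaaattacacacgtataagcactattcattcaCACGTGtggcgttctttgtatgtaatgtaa
VAL1: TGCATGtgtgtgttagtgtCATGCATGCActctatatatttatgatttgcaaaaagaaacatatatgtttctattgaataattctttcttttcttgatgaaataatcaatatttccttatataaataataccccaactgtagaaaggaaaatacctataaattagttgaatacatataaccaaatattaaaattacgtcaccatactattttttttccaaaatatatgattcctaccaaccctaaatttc
FUS3: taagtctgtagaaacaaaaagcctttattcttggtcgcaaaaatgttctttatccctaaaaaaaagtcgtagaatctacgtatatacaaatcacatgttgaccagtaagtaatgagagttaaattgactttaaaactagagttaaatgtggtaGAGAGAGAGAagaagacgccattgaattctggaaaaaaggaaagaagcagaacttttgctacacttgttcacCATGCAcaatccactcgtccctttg

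On both strands, CATGCA was found in 1 of the 10 repressor windows (VAL1), against 8.43% of 27443 windows of that length in the assembly. GAGAGA or its reverse complement TCTCTC was in 3 (CLF, MSI1, BMI1A), against 20.6% of all windows. CACGTG was in 1 (SWN), against 6.49%, and the telobox core AAACCCT in 0, against 7.33%. Among the 20 listed targets, GAGAGA was in 13, CATGCA in 4 (FUS3, AGL15, PI, WUS), AAACCCT in 3 and CACGTG in 1 (FLC). These are letter matches only and not binding sites.

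**Figure D1:**
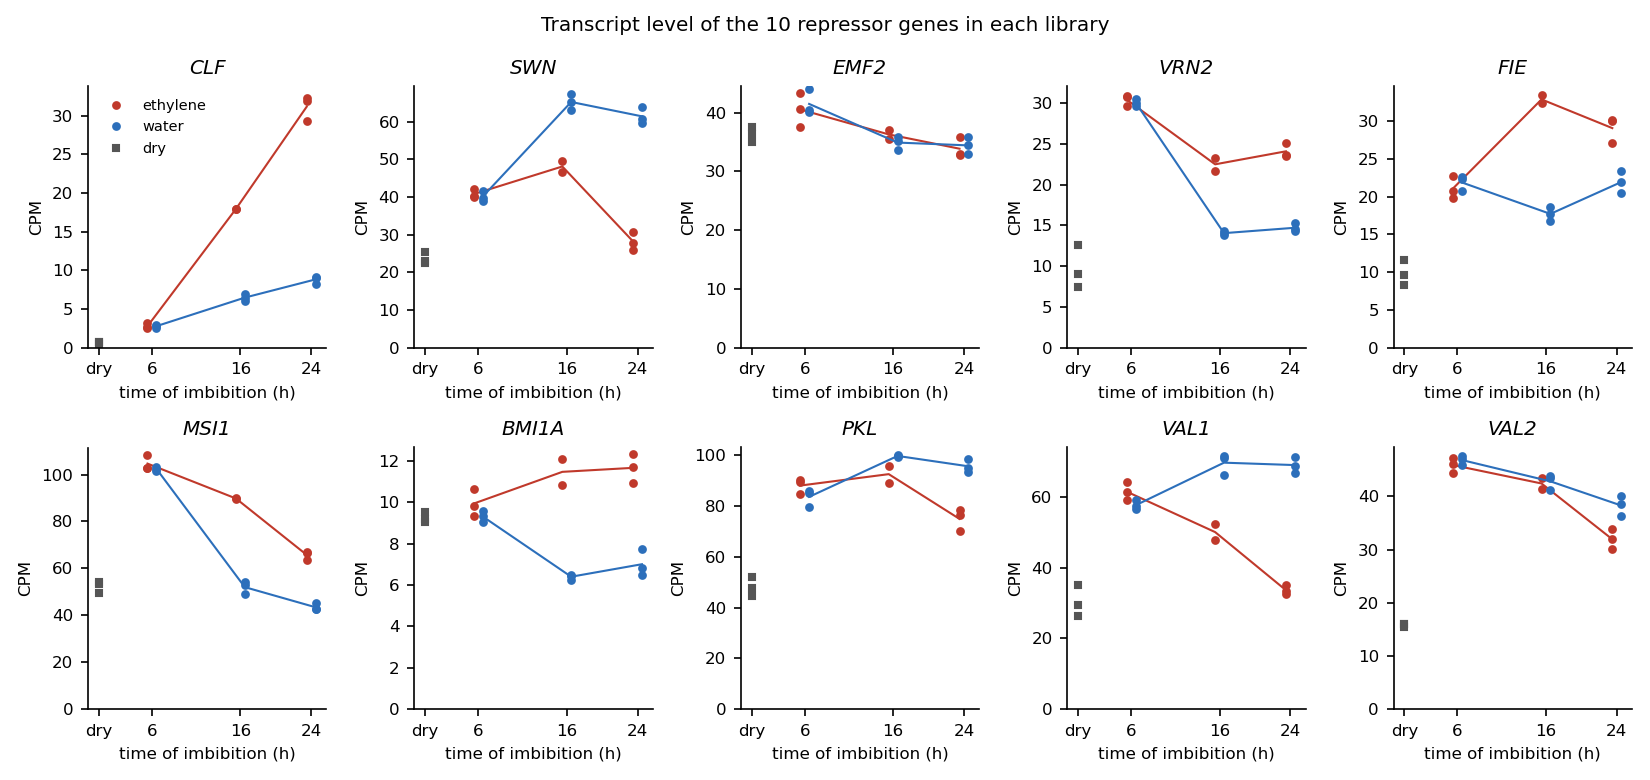
Level of each of the 10 repressor genes in CPM (vertical axis, from 0) against time of imbibition in hours (horizontal axis), 1 point per library, with ethylene in red, water in blue and dry seeds as grey squares, and lines through the group means. Ethylene and water points overlap at 6 h and are separate at 24 h for 9 genes, all but EMF2, and CLF climbs to 31.2 CPM with ethylene at 24 h.

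At 6 h ethylene and water did not differ detectably in any of the 10 genes. edgeR's quasi-likelihood test called 0 higher and 0 lower, with 0 at an unadjusted p under 0.05 and 0 by DESeq2, against 4.54% of all genes called higher and 4.34% lower. The fitted log2 fold changes lay between -0.06 for FIE and 0.10 for VAL1. At 16 h, 5 genes were higher with ethylene (CLF, VRN2, FIE, MSI1, BMI1A) and 2 lower (SWN, VAL1), against 37.6% of all genes higher and 35.4% lower. At 24 h the same 5 were higher and SWN, VAL1, PKL and VAL2 were lower, against 41.3% of all genes higher and 41.3% lower. The 10 genes were thus called about as often as genes in general, at both times. Their median log2 fold change was 0.37 at 16 h and 0.19 at 24 h, against 0.03 and 0.00 over all genes tested. These counts depended on the scaling. With library size alone 8 were higher and 2 lower at 16 h (median 0.62), EMF2, PKL and VAL2 passing as higher. At 24 h 6 were higher and 2 lower (median 0.54). All genes moved too with that scaling, to medians of 0.29 at 16 h and 0.35 at 24 h. Of the 19298 genes, 9462 were then higher and 4768 lower at 16 h, and 10202 and 5803 at 24 h. With median-ratio size factors the counts were 6 and 2 at 16 h (median 0.45) and 6 and 3 at 24 h (median 0.43). Over all genes the medians were then 0.11 and 0.23, with 8006 higher and 6103 lower at 16 h and 9480 and 6516 at 24 h.

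**Figure D2:**
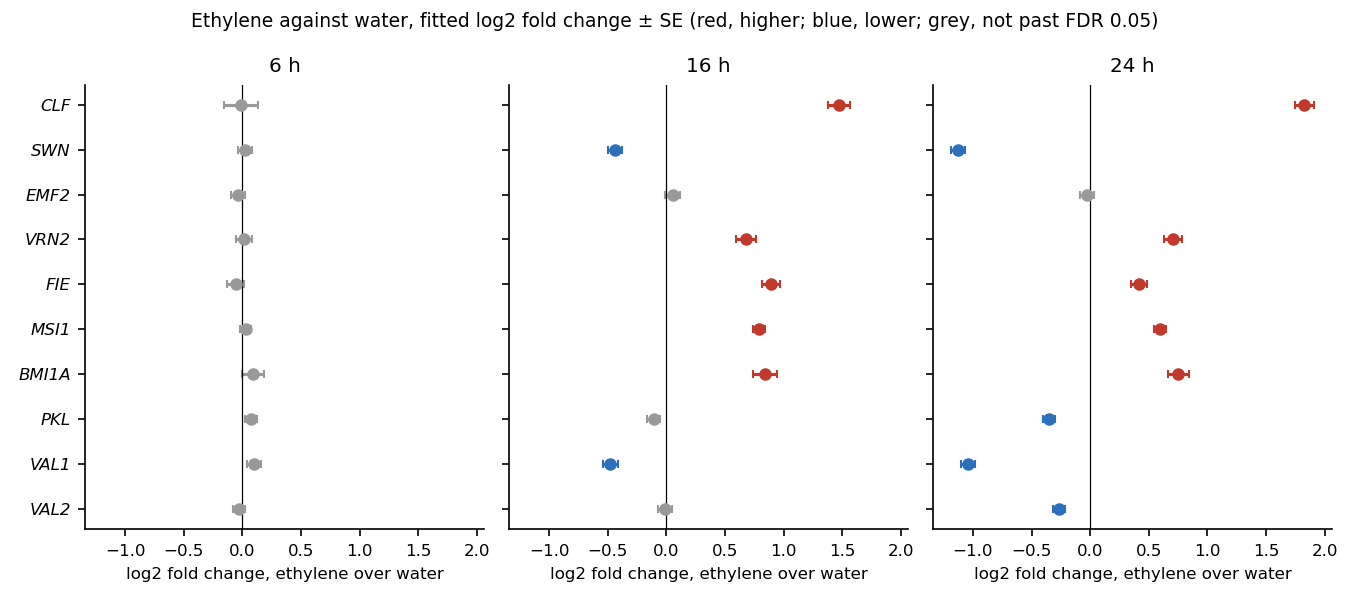
Fitted log2 fold change of ethylene over water (horizontal axis) for each repressor gene at 6, 16 and 24 h, with bars of 1 SE from the fit across all genes, red where higher, blue where lower and grey where not past the threshold. The points sit near 0 at 6 h, and at 24 h they reach from -1.13 for SWN to 1.83 for CLF.

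CLF and SWN encode the alternative catalytic subunits of PRC2, the enzymes that methylate the histone. CLF had 29.3, 32.3 and 31.9 CPM with ethylene and 9.19, 9.04 and 8.23 CPM with water at 24 h. All ethylene libraries lay above all water libraries, by a log2 fold change of 1.83 ± 0.08 (± SE; edgeR adjusted p = 4.4e-20). At 16 h CLF had 17.97 and 17.9 CPM with ethylene and 6.99, 6.36 and 6.05 CPM with water, a log2 fold change of 1.47 ± 0.09 (edgeR adjusted p = 1.59e-15). At 6 h it averaged 2.77 ± 0.324 CPM with ethylene and 2.77 ± 0.234 CPM with water (SD, n = 3 each). In dry seeds CLF was close to the limit of detection, with 4, 7 and 7 reads, or 0.633 ± 0.187 CPM. From dry seeds to 24 h with ethylene its mean level spanned 49.3-fold, the widest span of the 10 genes. The order of its 7 group means was ethylene 24 h, ethylene 16 h, water 24 h, water 16 h, the 6 h groups and dry seeds, and only the 6 h groups overlapped.

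SWN moved the other way. It had 27.7, 30.8 and 26.0 CPM with ethylene and 59.7, 64.0 and 60.6 CPM with water at 24 h. The ranges did not overlap, and SWN fell with ethylene by 1.13 ± 0.06 on the log2 scale (edgeR adjusted p = 1.79e-18). At 16 h it had 49.6 and 46.7 CPM with ethylene and 63.3, 65.3 and 67.3 CPM with water, again without overlap, with a log2 fold change of -0.44 ± 0.06 (edgeR adjusted p = 7.45e-08). Its 6 h groups overlapped, at 40.8 ± 1.12 CPM with ethylene and 40.1 ± 1.45 CPM with water (SD, n = 3 each), as did its highest groups, water at 16 h and 24 h. Dry seeds held the lowest level, 23.6 ± 1.58 CPM.

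The balance of the pair was read within each library, as a ratio of reads per coding length, which does not depend on scaling between libraries. The level of such a ratio depends on the length used, but its difference between groups does not. With ethylene at 24 h CLF stood level with SWN, at a geometric mean ratio of 1.05, while with water SWN was 7.35-fold above CLF. At 16 h SWN was 2.83-fold above CLF with ethylene and 10.7-fold with water, and at 6 h 15.6-fold with ethylene and 15.3-fold with water. In dry seeds SWN was 40.6-fold above. The log2 ratio differed between ethylene and water by 2.95 at 24 h and 1.91 at 16 h, with no overlap of libraries. The exact 2-sided permutation p was 0.1 at both times, the smallest that 3 against 3 or 2 against 3 libraries can give (0.129 adjusted over the 9 ratio tests), and 0.9 at 6 h. With the library labelled ethylene 16 h replicate 2 kept, the 16 h difference was 1.32 and the libraries overlapped (exact p = 0.2). The proteins have 902 (CLF) and 856 (SWN) residues in RefSeq and share 51.1% of aligned residues.

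**Figure D3:**
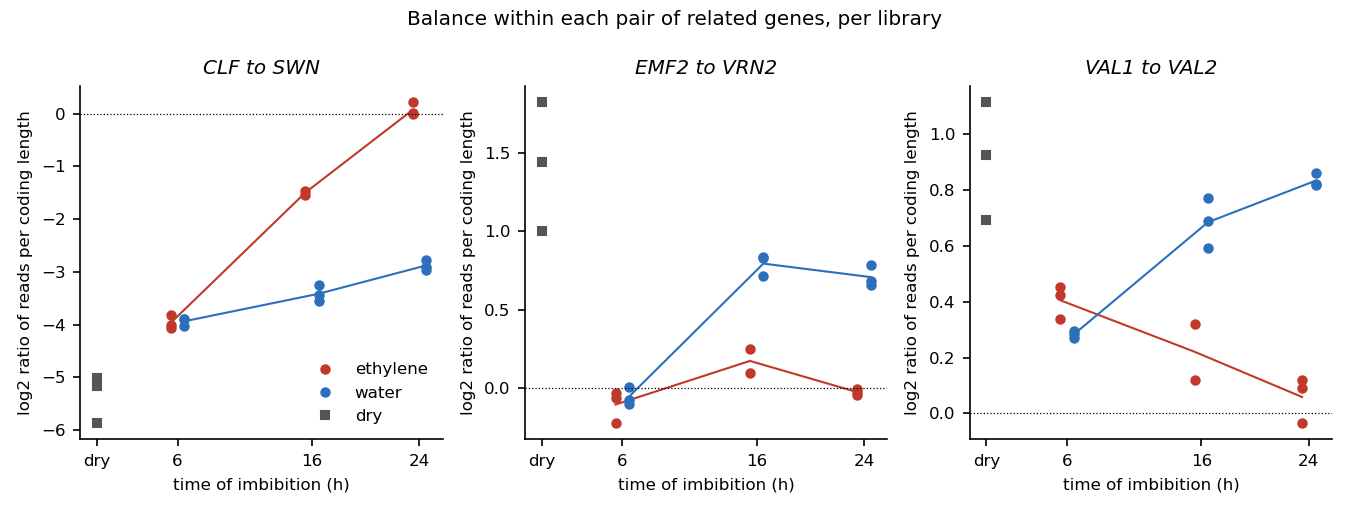
log2 ratio of reads per coding length within each library for CLF to SWN, EMF2 to VRN2 and VAL1 to VAL2 (vertical axes) against hours of imbibition, with ethylene in red, water in blue and dry seeds in grey, and a dotted line at equal levels. At 24 h the CLF to SWN points lie at 0.07 on average with ethylene and at -2.88 with water, and the points of the other pairs lie nearer to 0 with ethylene than with water.

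EMF2 and VRN2 encode alternative zinc finger subunits of PRC2, homologues of fly Su(z)12, and VRN2 is known for silencing the flowering repressor FLC. EMF2 was the steadiest of the 10. It had 35.8, 33.0 and 32.9 CPM with ethylene and 33.0, 34.5 and 35.9 CPM with water at 24 h, and its highest group mean was 1.23-fold its lowest. The groups overlapped, and its log2 fold change at 24 h was -0.03 ± 0.06 (edgeR adjusted p = 0.663). This sign depended on the scaling: with median-ratio size factors, which moved the median of all genes by 0.23 at 24 h, EMF2 was at 0.20 and past the threshold. VRN2 had 25.2, 23.5 and 23.7 CPM with ethylene and 14.4, 15.2 and 14.5 CPM with water at 24 h, a log2 fold change of 0.71 ± 0.08 (edgeR adjusted p = 6.19e-10). No ethylene library reached down to a water library. At 16 h it had 21.7 and 23.3 CPM with ethylene and 14.3, 13.8 and 14.1 CPM with water (log2 fold change 0.68 ± 0.08). Its highest level came at 6 h, with 30.4 ± 0.692 CPM with ethylene and 30.1 ± 0.421 CPM with water (SD, n = 3 each), groups that overlapped, and its lowest in dry seeds, 9.68 ± 2.69 CPM. VRN2 thus stayed nearer to its 6 h level with ethylene than with water.

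Within libraries, EMF2 was 2.68-fold above VRN2 per coding length in dry seeds. At 24 h the ratio was 0.981 with ethylene and 1.63 with water, and at 16 h 1.13 with ethylene and 1.73 with water. The libraries of ethylene and water did not overlap at these times (exact permutation p = 0.1, the smallest possible), and overlapped at 6 h (exact p = 0.6). With the library labelled ethylene 16 h replicate 2 kept, the 16 h difference on the log2 scale was -0.41 in place of -0.62, with overlap. EMF2 and VRN2, of 631 and 440 residues in RefSeq, share 52.9% of aligned residues.

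FIE and MSI1 encode the WD40-repeat subunits that every PRC2 form holds, and MSI1 also serves in the assembly of nucleosomes. FIE had 30.2, 30.0 and 27.1 CPM with ethylene and 23.5, 21.9 and 20.4 CPM with water at 24 h, a log2 fold change of 0.42 ± 0.07 (edgeR adjusted p = 2.67e-06). The difference was larger at 16 h, where FIE had 32.4 and 33.4 CPM with ethylene and 18.7, 17.7 and 16.7 CPM with water (log2 fold change 0.89 ± 0.08). FIE was highest with ethylene at 16 h and lowest in dry seeds (9.88 ± 1.68 CPM), and its 6 h groups and water at 24 h overlapped as neighbours. MSI1, the most abundant of the 10 per transcript length in all 7 groups, had 66.5, 66.9 and 63.8 CPM with ethylene and 42.5, 45.3 and 42.5 CPM with water at 24 h. All ethylene libraries were above all water libraries (log2 fold change 0.60 ± 0.05, edgeR adjusted p = 1.05e-12). At 16 h it had 90.0 and 89.6 CPM with ethylene and 52.9, 54.0 and 49.1 CPM with water (log2 fold change 0.79 ± 0.05). MSI1 peaked at 6 h, at 104.7 ± 3.09 CPM with ethylene and 102.5 ± 0.87 CPM with water, groups that overlapped. In water at 16 h its range overlapped that of dry seeds (52.3 ± 2.34 CPM).

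Of PRC1, BMI1A encodes a RING-finger protein that works with RING1 proteins in histone ubiquitination. BMI1A had 12.4, 11.7 and 10.9 CPM with ethylene and 7.74, 6.49 and 6.81 CPM with water at 24 h, a log2 fold change of 0.75 ± 0.09 (edgeR adjusted p = 7.89e-09). At 16 h it had 12.1 and 10.9 CPM with ethylene and 6.26, 6.46 and 6.49 CPM with water (log2 fold change 0.84 ± 0.10). The groups did not overlap at either time. Ethylene at 24 h and 16 h overlapped as its highest groups, water at 24 h and 16 h as its lowest, and the 6 h groups and dry seeds lay between, at 9.95 ± 0.66, 9.32 ± 0.288 and 9.27 ± 0.238 CPM for ethylene, water and dry. Per transcript length BMI1A was among the 2 lowest of the 10 genes in every group.

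PKL encodes a remodeller of the CHD3 type, and its loss keeps embryo traits in seedling roots. PKL had 76.5, 78.3 and 70.1 CPM with ethylene and 93.4, 94.96 and 98.7 CPM with water at 24 h. The groups did not overlap, and the log2 fold change was -0.35 ± 0.05 (edgeR adjusted p = 2.11e-07), but with library size alone as the scaling it was -0.00384 and not past the threshold. At 16 h PKL had 95.98 and 89.2 CPM with ethylene and 99.3, 99.7 and 100.3 CPM with water, which did not overlap but did not pass the test (log2 fold change -0.11 ± 0.06, edgeR adjusted p = 0.0862). It passed as lower without ethylene 16 h replicate 1 or dry replicate 2 or 3, and as higher with library size alone (0.15). Dry seeds had 48.2 ± 3.71 CPM, the lowest level.

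VAL1 and VAL2 encode the B3-domain proteins that bind RY motifs and recruit Polycomb proteins to embryo genes. VAL1 had 33.4, 35.1 and 32.5 CPM with ethylene and 66.9, 68.9 and 71.5 CPM with water at 24 h. It fell with ethylene by 1.04 ± 0.06 on the log2 scale (edgeR adjusted p = 6.26e-17), to a level that overlapped the range of dry seeds, 26.3 to 35.0 CPM. At 16 h it had 52.4 and 47.9 CPM with ethylene and 66.3, 71.8 and 71.2 CPM with water, without overlap (log2 fold change -0.48 ± 0.06, edgeR adjusted p = 6.16e-08). VAL2 had 33.8, 31.9 and 30.1 CPM with ethylene and 36.4, 38.5 and 40.02 CPM with water at 24 h. These did not overlap (log2 fold change -0.27 ± 0.05, edgeR adjusted p = 4.43e-05), yet with median-ratio size factors the value was -0.03 and with library size alone 0.08, neither past the threshold. At 16 h VAL2 averaged 42.4 ± 1.45 CPM with ethylene (n = 2) and 42.8 ± 1.47 CPM with water (n = 3), with overlap. Both genes were lowest in dry seeds, VAL2 at 15.8 ± 0.371 CPM.

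Within libraries the VAL1 to VAL2 ratio per coding length at 24 h was 1.04 with ethylene and 1.78 with water. Per transcript length VAL1 had 9.89 and VAL2 8.49 CPM per kb with ethylene at 24 h, and 20.3 and 10.2 with water. At 16 h the ratio per coding length was 1.17 with ethylene and 1.61 with water, and at 6 h 1.32 with ethylene and 1.22 with water. At all 3 times the libraries did not overlap (exact permutation p = 0.1, the smallest possible), with the ratio higher with ethylene at 6 h and lower at 16 and 24 h. With the library labelled ethylene 16 h replicate 2 kept, the 16 h libraries overlapped (exact p = 0.3). The proteins, of 790 and 780 residues in RefSeq, share 49.5% of aligned residues.

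Whether the response to ethylene changed with time was tested directly. Between 6 and 16 h the difference from water changed in 8 of the 10 genes, against 59.5% of all genes. It grew for CLF by 1.48 ± 0.18, FIE by 0.95 ± 0.11, MSI1 by 0.76 ± 0.07, BMI1A by 0.75 ± 0.14 and VRN2 by 0.66 ± 0.11 on the log2 scale. It turned lower for VAL1 (-0.57 ± 0.09), SWN (-0.46 ± 0.08) and PKL (-0.18 ± 0.08). The call for PKL lay near the threshold (edgeR adjusted p = 0.0449) and rested on the scaling, since it did not pass with median-ratio size factors (-0.09) or DESeq2 and had the opposite sign with library size alone (0.07), again not past the threshold. It was also lost with a replicate block, in the compared groups alone, without any 1 water library of 6 or 16 h, and without water 24 h replicate 2, ethylene 6 h replicate 1 or 3, ethylene 16 h replicate 3, or ethylene 24 h replicate 1 or 2. With the library labelled ethylene 16 h replicate 2 kept, edgeR called 0 of the 10 genes, with 6 at an unadjusted p under 0.05, and 3 between 16 and 24 h (DESeq2 was not run on that set). Between 16 and 24 h the difference changed in 7 genes, against 40.7% of all genes. Over all genes this later change had a median of -0.14, with 2071 called higher and 5785 lower. SWN (-0.69 ± 0.08) and VAL1 (-0.56 ± 0.09) moved further below water and CLF further above it (0.35 ± 0.13), while the excess of FIE over water shrank (-0.48 ± 0.11). The changes were -0.25 for PKL, -0.25 for VAL2 and -0.19 for MSI1. These last 3 did not pass with median-ratio size factors, with library size alone or with DESeq2, which left 4 genes, and leaving out 1 library gave between 4 and 7, with 4 without any 1 dry library, without ethylene 16 h replicate 1 or 3 and without ethylene 24 h replicate 3. The call for CLF (edgeR adjusted p = 0.0256) was lost without ethylene 16 h replicate 1 or 3, water 16 h replicate 1 or water 24 h replicate 3, with a replicate block, with the library labelled ethylene 16 h replicate 2 kept, and at a threshold of 0.01. With 1 library left out MSI1 passed only without water 6 h replicate 1, water 16 h replicate 1 or 2, or water 24 h replicate 1 or 3.

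In water alone, imbibition raised nearly all of these genes early and then separated them. At 6 h in water 9 of the 10 were higher than in dry seeds and 0 lower (0 lower also at an unadjusted p under 0.05 and by DESeq2), against 40.6% of all genes higher and 34.5% lower. CLF rose by 2.13 ± 0.26 on the log2 scale, VRN2 by 1.64 ± 0.10, VAL2 by 1.57 ± 0.07 and FIE by 1.15 ± 0.10, while BMI1A was at 0.01 ± 0.11. EMF2, at 0.20 ± 0.07, did not pass with median-ratio size factors, in the compared groups alone or without water 6 h replicate 2. The scaling matters here, since with library size alone the median of all genes moved up by 1.01, and BMI1A was then at 1.02. With ethylene at 6 h against dry seeds 9 were higher and 0 lower (0 lower also at an unadjusted p under 0.05 and by DESeq2), against 41.4% higher and 34.7% lower of all genes.

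From 6 to 16 h in water 4 genes rose and 6 fell, against 38.9% and 37.3% of all genes. CLF rose by 1.21, SWN by 0.70, VAL1 by 0.28 and PKL by 0.25 on the log2 scale. VRN2 (-1.10), MSI1 (-0.98), BMI1A (-0.54), FIE (-0.31), EMF2 (-0.25) and VAL2 (-0.13) fell. The fall of FIE did not pass with the library labelled ethylene 16 h replicate 2 kept (edgeR adjusted p = 0.108). From 16 to 24 h in water 2 rose (CLF by 0.44, FIE by 0.30) and 2 fell (MSI1 by 0.26, VAL2 by 0.16), against 24.4% and 20.1% of all genes. With that library kept, edgeR called 0 of the 10 genes for this later step, with 1 at an unadjusted p under 0.05 (DESeq2 was not run on that set). The falls of VAL2 in water, from 6 to 16 h and from 16 to 24 h, did not pass with median-ratio size factors (-0.11 and -0.12), and the first did not pass with library size alone (-0.07). The first was also lost without water 16 h replicate 3 or water 6 h replicate 1, and the second without water 16 h replicate 1 or 2 or water 24 h replicate 1.

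With ethylene, from 6 to 16 h 4 genes rose and 4 fell, against 39.6% and 41.2% of all genes. CLF rose by 2.69 ± 0.11, FIE by 0.64 ± 0.08, SWN by 0.24 ± 0.06 and BMI1A by 0.21 ± 0.10, and VRN2 (-0.44), VAL1 (-0.30), MSI1 (-0.22) and EMF2 (-0.16) fell. The rise of BMI1A was near the threshold (edgeR adjusted p = 0.0482) and did not pass without the filter on low counts, with a replicate block, without any 1 library of water at 6 or 16 h or ethylene at 24 h, or without water 24 h replicate 2, ethylene 6 h replicate 1 or 3 or ethylene 16 h replicate 1. None of the 4 falls passed with library size alone, where VRN2 was at -0.13 and not past the threshold and EMF2 (0.14), MSI1 (0.08) and VAL1 (0.01) had the opposite sign, EMF2 then past the threshold as higher. With median-ratio size factors EMF2 (-0.05) and MSI1 (-0.11) did not pass and PKL, at 0.18, passed as higher. The fall of EMF2 was also lost without ethylene 16 h replicate 3 or ethylene 6 h replicate 2, and with the library labelled ethylene 16 h replicate 2 kept EMF2, BMI1A and VAL1 did not pass. From 16 to 24 h with ethylene 1 rose, CLF by 0.80 ± 0.08, and 6 fell (SWN, VAL1, MSI1, VAL2, PKL and FIE, from -0.77 for SWN to -0.18 for FIE), against 28.8% and 41.1% of all genes. With median-ratio size factors PKL (-0.12) and FIE (0.01) did not pass, while VRN2 (0.29) and BMI1A (0.21) passed as higher, so that 3 rose and 4 fell. VRN2 passed as higher also without any 1 dry library. FIE did not pass with library size alone (-0.10), without any 1 dry library, or without ethylene 16 h replicate 1 or 3 or ethylene 24 h replicate 3. With the library labelled ethylene 16 h replicate 2 kept neither FIE (0.06) nor MSI1 (-0.22) passed.

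Against dry seeds, ethylene at 24 h left 9 genes higher and 0 lower (0 lower also at an unadjusted p under 0.05 and by DESeq2), against 48.2% and 42.4% of all genes, and water at 24 h left 7 higher and 2 lower, against 47.3% and 37.5%. These comparisons share the dry libraries. CLF was higher by 5.61 ± 0.16 with ethylene and 3.78 ± 0.20 with water on the log2 scale, SWN by 0.26 ± 0.07 with ethylene and 1.38 ± 0.07 with water, and VAL1 by 0.15 ± 0.07 with ethylene and 1.19 ± 0.07 with water. The value of VAL1 with ethylene lay at the threshold (edgeR adjusted p = 0.0494), its libraries overlapped those of dry seeds, and it did not pass with the library labelled ethylene 16 h replicate 2 kept (edgeR adjusted p = 0.201). MSI1 was at 0.33 ± 0.05 with ethylene and -0.27 ± 0.06 with water, and BMI1A at 0.33 ± 0.10 with ethylene and -0.42 ± 0.11 with water. With library size alone the median of all genes moved up by 1.40 with ethylene and 1.04 with water, more than these last values, so they stand relative to other genes.

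Per transcript length, MSI1 led in all 7 groups, at 40.4 ± 1.06 CPM per kb with ethylene at 24 h, 26.7 ± 0.991 with water at 24 h and 32.2 ± 1.44 in dry seeds. CLF was the lowest of the 10 in dry seeds, in both 6 h groups and in water at 16 and 24 h, and with ethylene at 24 h it ranked 7 of 10, at 8.87 ± 0.453 CPM per kb, beside VAL2 at 8.49 ± 0.493 and SWN at 8.28 ± 0.719.

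Partners and relatives of these proteins were followed in a list of 28 further Polycomb, VAL, CHD3 and associated genes, of which 23 passed the filter. At 24 h 4 were higher with ethylene and 17 lower, against 41.3% of all genes higher and 41.3% lower, with a median log2 fold change of -0.58 against 0.00 over all genes. At 16 h 5 were higher and 14 lower, against 37.6% and 35.4% of all genes (median -0.30 against 0.03). With library size alone the counts were 6 and 13 at 24 h and 8 and 9 at 16 h, settings added after the data were seen. Over all genes that scaling called 10202 higher and 5803 lower at 24 h and 9462 and 4768 at 16 h. The medians of the listed genes were then -0.23 and -0.04, against 0.35 and 0.29 over all genes. RING1A, RING1B and DRIP1, genes of PRC1, were lower with ethylene, whereas BMI1A was higher. RING1A, a RING1 partner of BMI1A, averaged 9.60 ± 0.295 CPM with ethylene and 41.1 ± 3.03 CPM with water at 24 h (log2 fold change -2.11 ± 0.07). RING1B averaged 13.8 ± 1.81 CPM with ethylene and 56.0 ± 1.45 CPM with water (-2.02 ± 0.08), and DRIP1 (AT1G06770), a relative of BMI1A, 12.4 ± 0.492 CPM with ethylene and 24.4 ± 0.296 CPM with water (-0.98 ± 0.06). LHP1, which binds the H3K27me3 mark, averaged 15.9 ± 1.24 CPM with ethylene and 44.5 ± 1.99 CPM with water (-1.48 ± 0.06). These directions held with all 3 scalings at 24 h, and the ranges of ethylene and water did not overlap. VAL3, the third VAL gene, was low, at 1.505 ± 0.198 CPM with ethylene and 4.59 ± 0.679 CPM with water (-1.58 ± 0.17). EMF1, a PRC1-associated gene, was at -0.28 ± 0.07, and with the other scalings it did not pass.

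VEL1 and VRN5, like CLF and VRN2, were higher with ethylene. VEL1 averaged 148.4 ± 5.32 CPM with ethylene and 39.1 ± 2.69 CPM with water at 24 h (log2 fold change 1.92 ± 0.06), and VRN5 35.6 ± 1.63 CPM with ethylene and 11.8 ± 0.431 CPM with water (1.61 ± 0.08). Both encode PHD-finger proteins that join PRC2 in silencing FLC. VRN5 was also higher at 6 h (0.25 ± 0.08, edgeR adjusted p = 0.031), the 1 gene of the 23 past the threshold at that time. The seed-borne forms of PRC2 were hardly seen: MEA, the endosperm catalytic subunit, had 0 reads in all groups (a count of 0 allows up to 3 reads), and FIS2, its partner, had 1 read in water at 24 h and 0 elsewhere. VIN3, PKR2 and AT3G23060 also failed the filter. Of the relatives of MSI1, MSI4 (-1.03) and MSI3 (-0.58) were lower, and MSI2 did not pass the threshold. Of the histone deacetylase genes HDA19 was lower (-0.91) and HDA6 higher (0.18). Of the TRB genes, whose products bind telobox motifs, TRB1 (-0.61) and TRB2 (-0.49) were lower and TRB3 higher (0.62). AL6 (-0.84) and AL7 (-0.53), which encode PHD-finger proteins, BLI (-0.59), whose product binds CLF, and AT3G63270 (-0.58) were lower, as were PKR1 (-0.27), a relative of PKL, and VRN1 (-0.22), a B3-domain gene. With library size alone TRB2 (-0.14), PKR1 (0.08) and VRN1 (0.13) did not pass, the last 2 with the opposite sign, and with median-ratio size factors PKR1 (-0.04) and VRN1 (0.01) did not pass.

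**Figure D4:**
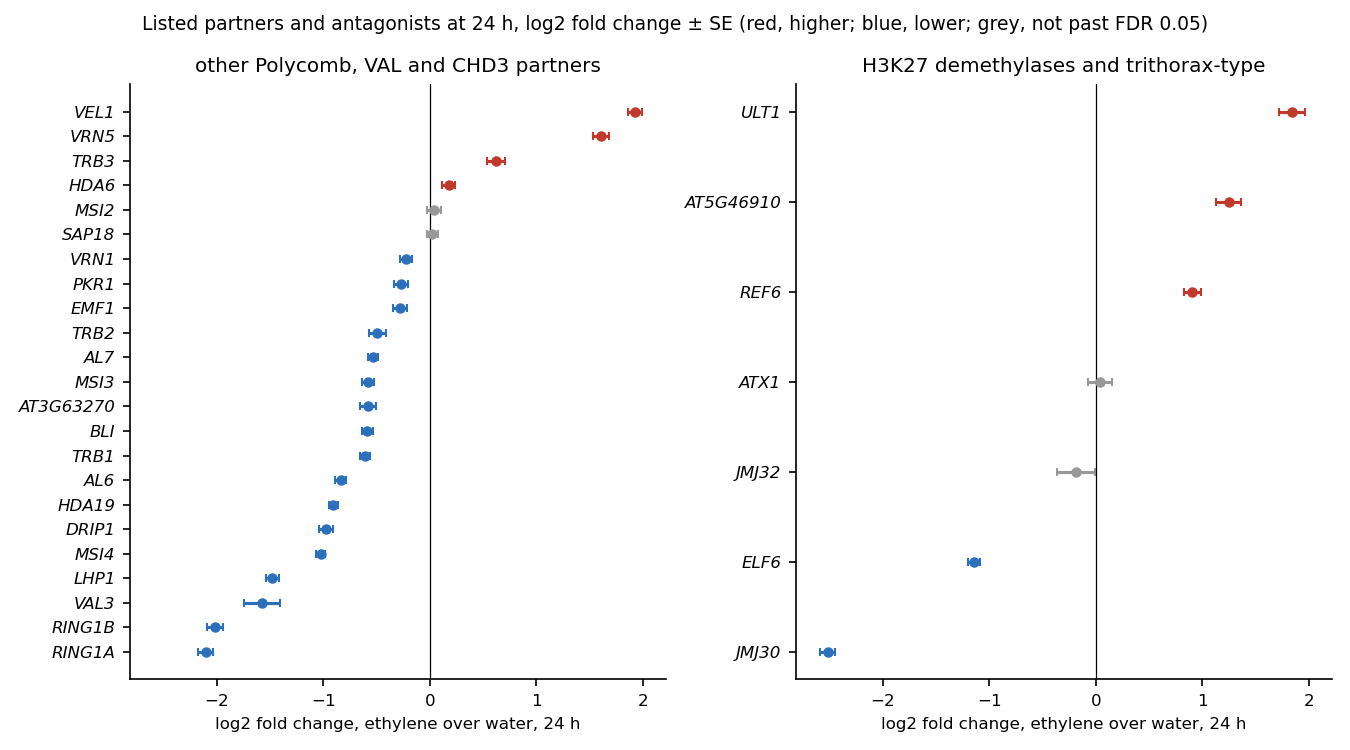
log2 fold change of ethylene over water at 24 h (horizontal axes), with bars of 1 SE. The left panel holds the 23 tested partners, relatives and associated genes, the right the 7 antagonists. Points are red where higher, blue where lower and grey where not past the threshold. VEL1 and VRN5 lie at the top with 1.92 and 1.61, RING1A and RING1B at the bottom with -2.11 and -2.02, and the antagonists spread from -2.52 for JMJ30 to 1.84 for ULT1.

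Genes that oppose Polycomb went both ways. Of 7 listed, 3 were higher and 2 lower with ethylene at 24 h, against 41.3% of all genes higher and 41.3% lower. Their median was 0.04, against 0.00 over all genes. With library size alone 4 were higher and 2 lower (median 0.39 against 0.35 over all genes, of which 10202 were higher and 5803 lower). REF6, which removes H3K27me3, averaged 59.6 ± 6.73 CPM with ethylene and 31.6 ± 1.82 CPM with water (log2 fold change 0.91 ± 0.08), and ULT1, a trithorax-type gene, 16.8 ± 0.818 CPM with ethylene and 4.63 ± 0.561 CPM with water (1.84 ± 0.12). AT5G46910 was higher by 1.25 ± 0.12. The demethylase genes JMJ30, at 9.40 ± 0.226 CPM with ethylene and 53.8 ± 3.15 CPM with water (-2.52 ± 0.07), and ELF6 (-1.15 ± 0.05) were lower. JMJ32 was at -0.19 ± 0.18 and the histone methyltransferase gene ATX1 at 0.04 ± 0.11, neither past the threshold.

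Of 20 genes listed as known targets of these repressors, 13 passed the filter. At 24 h 4 were higher with ethylene and 5 lower, against 41.3% of all genes higher and 41.3% lower, with a median log2 fold change of -0.01 against 0.00 over all genes. With library size alone the counts were 6 and 4 (median 0.34 against 0.35 over all genes, of which 10202 were higher and 5803 lower). FLC, the flowering repressor silenced by VRN2 and VAL1, averaged 10.9 ± 0.863 CPM with ethylene and 77.3 ± 4.67 CPM with water at 24 h (log2 fold change -2.83 ± 0.07), and 24.9 ± 0.963 CPM with ethylene and 69.2 ± 6.87 CPM with water at 16 h (-1.47 ± 0.08). Its level in dry seeds was 123.6 ± 8.16 CPM. ABI3, a master regulator of seed maturation, averaged 69.1 ± 1.72 CPM with ethylene and 403.7 ± 14.9 CPM with water at 24 h (-2.55 ± 0.05), and was lower already at 6 h (-0.38 ± 0.05). FUS3, whose window is printed above, was at 5.15 ± 0.846 CPM with ethylene and 7.28 ± 0.852 CPM with water at 24 h (-0.48 ± 0.13, not past the threshold with the other scalings).

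The other seed regulators on the list went both ways. ABI4, a factor of abscisic acid signalling, averaged 60.2 ± 1.19 CPM with ethylene and 24.7 ± 0.214 CPM with water at 24 h (log2 fold change 1.29 ± 0.07). AGL15, a MADS-box gene of embryos with CATGCA in its window, averaged 10.7 ± 1.02 CPM with ethylene and 5.51 ± 0.96 CPM with water (0.98 ± 0.12) and was higher at 6 h too (0.73 ± 0.12). LEC1, which starts the embryo programme, had 39 reads over 3 libraries with ethylene and 2 with water at 24 h. Per TMM-scaled library size the ratio was 12.4 (95% exact counting interval 3.22 to 106). At 16 h LEC1 had 10 reads over 2 libraries with ethylene and 0 with water. That was at least 4.03-fold higher against a floor of 3 reads over the group. DOG1, the dormancy gene, had 1 read with ethylene and 35 with water at 24 h, 54.9-fold lower with ethylene (interval 9.24 to 2231), against 111.9 ± 5.77 CPM in dry seeds. PI, a floral gene, had 113 reads with ethylene and 8 with water. The counting intervals cover counting error only, and the ratios of LEC1 and DOG1 use TMM-scaled library sizes. KNAT1, a meristem gene, was lower (-0.77 ± 0.11), and BBM, L1L, STM and KNAT2 did not pass the threshold, with values from -0.08 to 0.52. LEC2, FT, AG, AP3, SEP3, WUS and PHE1 had too few reads for the test.

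**Figure D5:**
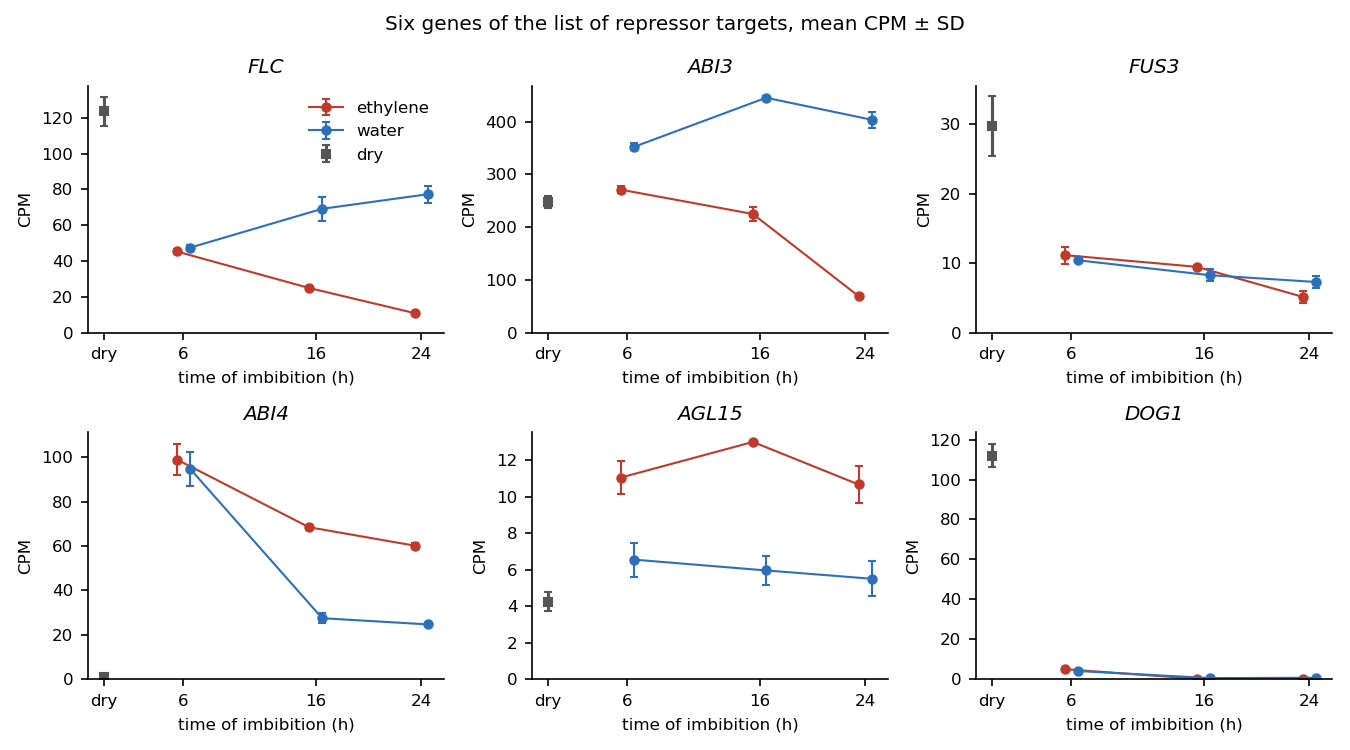
Mean CPM ± SD (vertical axes, from 0) of FLC, ABI3, FUS3, ABI4, AGL15 and DOG1 against hours of imbibition, with ethylene in red, water in blue and dry seeds in grey (n = 3, and 2 for ethylene at 16 h). FLC falls to 10.9 CPM and ABI3 to 69.1 CPM with ethylene at 24 h, ABI4 lies higher with ethylene at 16 and 24 h, and DOG1 is below 1 CPM from 16 h on in both treatments.

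The genes whose log2 CPM followed each repressor most closely over the 20 libraries are given as a description. For CLF they were KASI (Pearson's r = 0.991) and ROD1 (0.99), for SWN PCN (0.981) and UMAMIT41 (0.979), and for EMF2, the steadiest gene, CRK1 (0.907) and ANK6 (0.901). VRN2 was followed by GEK1 (0.984) and CIPK9 (0.982), FIE by GBF6 (0.979) and GA3OX1 (0.978), and MSI1 by RBP47C' (0.991) and PRMT11 (0.991). BMI1A was followed by ADC1 (0.962) and OVA5 (0.949), PKL by ABCC1 (0.985) and MTR4 (0.985), VAL1 by GCN2 (0.982) and BRM (0.981), and VAL2 by NTL8 (0.986) and GRF5 (0.986). The points share the 7 groups and the same scaling.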

How the data were processed

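Messenger RNA of whole seeds was measured in 21 libraries of 7 groups. The authors deposited raw read counts per gene, per the file headers in unstranded, forward and reverse columns, made with STAR against TAIR10, per the submitters' processing notes. Neither versions nor trimming are stated there. The libraries are stranded, polyA-selected and read from 1 end, per the labels' protocols, and the reverse counts were used. CLF, FIE, MSI1, PKL and VAL2 overlap genes on the opposite strand, whose reads fall in the forward counts. PKL also overlaps a miRNA gene (AT2G25171) on its own strand over 103 bases, which the reverse counts do not separate. The 4 lines per file that name no gene entered neither library sizes nor tests; 94.25 to 97.45% of reads lay on genes.

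A single fit in edgeR 4.0.16 (R 4.3.3; TMM, minimum count 10, total 15, 2-sided quasi-likelihood F test) covered 20 libraries and 19298 genes, with Benjamini-Hochberg adjustment over all of them and a threshold of 0.05. SE is the log2 fold change over the square root of F. The biological coefficient of variation was 0.0466, and 0.177 with the library labelled ethylene 16 h replicate 2. That library was left out because it matches water. CPM use TMM-scaled library sizes, except those of forward reads, which use all gene reads of a library. Ratios within libraries were compared by exact permutation over libraries. The test was tried on simulated counts with few genes changed, in equal numbers up and down. That setting is unlike these data, so the trial does not bear on the choice of scaling. DESeq2 1.42.0, other scalings, no filter, unstranded counts, compared groups only, a replicate block, a stricter threshold of 0.01 and leaving out each library were the alternatives.

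Members and lists were chosen with earlier results of these data known. All 10 members are named. Other genes are list members, up to 4 per list by the size of change at 24 h and those whose role is described, and the 2 genes best correlated with each member. Symbols, promoters, protein lengths and identities came from RefSeq, assembly TAIR10.1. Same-numbered libraries did not deviate together (median correlation -0.0026 over 57 pairs).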

Additional observations from a re-analysis of the deposited data

Results flagged for a closer look

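The response to ethylene differed between times by a test of the difference itself. From 6 to 16 h the difference from water changed by 1.484 for CLF, -0.4623 for SWN, 0.664 for VRN2, 0.9516 for FIE, 0.7595 for MSI1, 0.7475 for BMI1A, -0.18 for PKL and -0.5741 for VAL1 on the log2 scale. The value for PKL did not pass with median-ratio size factors and had the opposite sign with library size alone. From 16 to 24 h it changed by 0.3535 for CLF, -0.686 for SWN, -0.4763 for FIE, -0.1929 for MSI1, -0.2456 for PKL, -0.5615 for VAL1 and -0.2542 for VAL2. Those of MSI1, PKL and VAL2 did not pass with either of these scalings, and the median over all genes was -0.14 in the main fit.

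Some values outside the comparisons lay above the water libraries. The library labelled ethylene 16 h replicate 2, which the comparisons leave out, had 7.299 CPM of CLF, 37.49 of EMF2, 14.95 of VRN2, 7.845 of BMI1A and 105.7 of PKL, each above the highest water 16 h library. Its levels of SWN, FIE, MSI1 and VAL1 lay within the water 16 h range, and that of VAL2 (39.7 CPM) lay below the lowest water 16 h library (41.2 CPM). Reads in the forward orientation, which were not counted, lay above all water libraries of the same time for EMF2 at 16 h (0.3417 CPM with ethylene, 0.08098 with water), for FIE at 16 h (1.834 with ethylene, 1.152 with water) and at 24 h (1.563 with ethylene, 0.6227 with water), and for MSI1 at 16 h (0.3671 with ethylene, 0.2253 with water). FIE and MSI1 overlap genes on the opposite strand.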

How the results depend on the processing

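The 7 calls between ethylene and water at 16 h held in every alternative run. Of the 9 at 24 h, 8 held with median-ratio size factors and DESeq2 and 7 with library size alone. At 6 h 1714 genes were called, and 1127 at a threshold of 0.01. With the library labelled ethylene 16 h replicate 2 kept, 203 were called at 6 h at the threshold of 0.05. Genes called then numbered 3525 for water 24 h against 16 h (against 8589) and 203 for the change from 6 to 16 h (against 11473). With that library kept, edgeR called 0 repressor genes for water 24 h against 16 h (against 4), with 1 at an unadjusted p under 0.05. For the change from 6 to 16 h it called 0 (against 8), with 6 at that unadjusted p. For the change from 16 to 24 h it called 3 (against 7). That last count was 4 with median-ratio size factors, library size alone, DESeq2, unstranded counts and the compared groups only, and 4 to 7 with 1 library left out. With a replicate block it was 6, that from 6 to 16 h was 7, ethylene 16 h against 6 h gave 7 and ethylene 24 h against dry 8. Same-numbered libraries showed no pairing in their values: 4 of 20 libraries correlated best with their own number. That cannot show whether they share a seed lot or batch. The cause of each shift was not tested. Signs turned as follows, on the log2 scale. Ethylene against water at 16 h: PKL 0.148 (library size), VAL2 0.0724 (median-ratio), 0.243 (library size), 0.0725 (DESeq2). At 24 h: EMF2 0.205, 0.322, 0.205 and 0.0972 (unstranded), VAL2 0.0834 (library size). Water 6 h against dry: BMI1A -0.119 (median-ratio, DESeq2) and -0.0355 (compared groups). Water 24 h against 16 h: EMF2 0.0228 and 0.0227, VAL1 0.0267 and 0.0263 (median-ratio, DESeq2). Ethylene 16 h against 6 h: EMF2 0.145, MSI1 0.083, VAL1 0.00638 and VAL2 0.191 (library size), VAL2 4.89e-05 and 3.68e-05 (median-ratio, DESeq2). Ethylene 24 h against 16 h: EMF2 0.0873 (median-ratio, DESeq2), 0.0336 (unstranded), 0.00217 (compared groups), FIE 0.0562 (library kept), 0.00965 and 0.00956 (median-ratio, DESeq2). Change from 6 to 16 h: PKL 0.0713 (library size), VAL2 -0.0158 (library kept). Change from 16 to 24 h: EMF2 0.0645 (median-ratio), 0.00973 (library size), 0.0646 (DESeq2), 0.0433 (unstranded), 0.044 (compared groups), MSI1 0.0414 (library kept), BMI1A 0.0645 (library kept), 0.0608, 0.00547, 0.0613, 0.0421 and 0.03999 in the same order as EMF2. Leaving out 1 library gave, at 6 h, CLF -0.127 to 0.0389, SWN -0.0131 to 0.0427, EMF2 -0.0943 to 0.00469, VRN2 -0.0043 to 0.0277, MSI1 -0.000359 to 0.0357, the CLF to SWN ratio -0.0998 to 0.0184 and EMF2 to VRN2 -0.0875 to 0.00911. It gave VAL2 at 16 h -0.0588 to 0.00576, EMF2 at 24 h -0.0544 to 0.0779, BMI1A at 6 h against dry -0.021 to 0.0341, in water from 16 to 24 h EMF2 -0.0458 to 0.0102 and VAL1 -0.0464 to 0.00886, and with ethylene from 16 to 24 h EMF2 -0.129 to 0.0252 and BMI1A -0.0527 to 0.15. For the change from 6 to 16 h it gave VAL2 -0.0298 to 0.0486, and from 16 to 24 h EMF2 -0.11 to 0.0415, VRN2 -0.00093 to 0.154 and BMI1A -0.154 to 0.0377. The share of called genes that were higher moved by over 10 points with library size alone: at 16 h 66.5% against 51.6%, at 24 h 63.7% against 49.99%, 81.8% against 54.1% for water 6 h, 81.4% against 54.4% for ethylene 6 h, 80.3% against 55.8% for water 24 h and 76.9% against 53.2% for ethylene 24 h over dry, 61.9% against 48.97% for ethylene 16 h over 6 h, and 65.3% against 48.0% and 38.5% against 26.4% for the changes. With median-ratio factors it was 56.9% against 41.2% for ethylene 24 h over 16 h and 47.4% for the later change (DESeq2 56.6% and 46.4%), and with the library kept 63.05% against 51.2% at 6 h and 70.4% against 48.0% for the earlier change. Reads limit CLF in dry seeds (4 to 7 a library), LEC1, DOG1 and PI.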
